A study of Homo sapiens with 6 samples.

Results

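The genes described here are 34 genes of glucose uptake, glycolysis, pyruvate handling, lactate export and the pentose phosphate pathway, picked by symbol from the 60623 genes of the deposited expression table. Each of the 34 symbols matched 1 row. The RNA came from LX2, an immortalised human line derived from hepatic stellate cells, the collagen-producing cells of the liver. One group was transfected with siSHMT2, an siRNA against SHMT2 (labelled as SHMT2 knockdown, 3 libraries). The other was transfected with siNC, a control siRNA (labelled WT, 3 libraries). Transfection lasted 36 h, and for all 6 libraries the culture medium held 2% serum. Such a line in culture is a limited model of stellate cells in liver, and the labels do not say whether the libraries of a group came from separate cultures, so the tests measure only the spread between these libraries, which may be technical.

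Glycolysis splits glucose into pyruvate, with hexokinase, phosphofructokinase and pyruvate kinase as its irreversible steps. Pyruvate is then either reduced to lactate and exported or carried into mitochondria for oxidation, and the pentose phosphate pathway branches off to make NADPH and ribose. Serine is made from the glycolytic intermediate 3-phosphoglycerate, and SHMT2, the mitochondrial serine hydroxymethyltransferase, splits serine into glycine and a one-carbon unit. Stellate cells are known to raise glycolysis and lactate production when they become activated.

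The deposited values are FPKM, read counts normalised by the authors to gene length and library size. For GPI, PKM and SLC16A3 that length was 10680, 8571 and 8995 bases, equal to all annotated exonic bases of the gene. Comparisons of levels between genes, ranks and shares included, therefore depend on the lengths used and are approximate. The whole reads recovered from the FPKM summed to 14722344 to 15010322 per siSHMT2 library and 15135070 to 15669139 per siNC library. The library size used in the FPKM was not this sum. It was 1.05 to 1.13 times the recovered reads in siSHMT2 libraries and 0.957 to 1.12 times in siNC libraries. The lowest was siNC replicate 2, whose FPKM summed to 389085, the highest of the 6, against 310119 in siSHMT2 replicate 2, the lowest. SHMT2 itself stood at 2.25, 2.10 and 2.42 FPKM in siSHMT2 libraries, against 40.8, 56.3 and 45.1 FPKM in siNC libraries, in keeping with the labels (limma adjusted p = 2.08e-05). Genes averaging at least 1 FPKM over the 6 libraries were tested with limma on log2(FPKM + 1), which understates changes of low genes. A gene was called at an adjusted p under 0.05 over all 10865 genes tested. The siNC libraries lay further apart than the siSHMT2 libraries (median SD over tested genes 0.105 in siSHMT2 and 0.191 in siNC on the log2 scale), and siNC replicates 1 and 2 deviated in opposite directions for many of the 34 genes. Each deviation was taken from the other libraries of the group, so the deviations of a gene cancel out within a group. Opposite signs are therefore in part built in, also in the correlations that follow. Across 10831 genes, which are not independent replicates, the deviation of a library from the others of its group correlated with GC content at 0.0409, -0.378 and 0.346 in siSHMT2 replicates 1, 2 and 3, and at -0.481, 0.354 and 0.136 in siNC replicates 1, 2 and 3. Of 12 stellate cell markers, 6 averaged at least 1 FPKM, COL1A1 among them, while the quiescence marker LRAT was listed at 0 in all 6 libraries and DES and ACTA2 averaged 0.0993 and 0.605 FPKM. The summed level of the 12 was 1246 to 1458 FPKM in siSHMT2 libraries and 1643 to 2535 FPKM in siNC libraries. VIM and TIMP1 made most of that sum. VIM did not overlap (473 to 527 FPKM in siSHMT2, 739 to 930 FPKM in siNC), while TIMP1, COL1A1, COL1A2, COL3A1 and ACTA2 overlapped, the last 3 with the higher mean in siSHMT2. Of the 6 hepatocyte, 4 endothelial, 4 macrophage and 2 erythroid markers, 0 averaged 1 FPKM, and of 3 biliary markers only KRT7 did (1.69 FPKM in siSHMT2, 2.20 FPKM in siNC). The part of these shifts in the results was not tested.

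Among the 34 genes, 4 held at least 1 of the 7-base words GACTTTA and ACTTTAA in their longest annotated 3′ UTR. The words are shown because earlier work on these same fold changes found them to go with lower expression after siSHMT2 across all genes. They therefore describe the genes and are not independent support. The stretches below are mRNA-sense, 5′ to 3′, written as DNA, with the word or overlapping words in capitals.
SLC16A3: gacaacgtGACTTTAAtgggaggg
SLC2A3: tttttttaACTTTAAgtttcagg
MPC2: tatgctgtGACTTTAgacaagtt
PFKFB2: gacagacaGACTTTAgtgtctgt
In GENCODE release 29 (GRCh38) the capitals lie at chr17:82239293-82239300 (plus strand) in SLC16A3, chr12:7920893-7920899 (minus strand) in SLC2A3, chr1:167917303-167917309 (minus strand) in MPC2 and chr1:207076644-207076650 (plus strand) in PFKFB2. The SLC16A3 site holds both words, overlapping, in a 3′ UTR of 1110 bases.

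Of the 34 genes, 31 passed the filter. In siSHMT2 cells 2 of them were higher, PFKL and PGAM1, and 3 were lower, SLC16A3, SLC2A3 and ALDOA. Those 5 of 31 genes make 16.1%, against 15.9% called among all genes tested (6.07% higher and 9.85% lower), so the share was close to the background. The other 26 genes were not called. Their differences ran from -0.40 (ENO1) to 0.32 (MPC1), and the median over the 31 was -0.04, against 0.02 for all genes. Groups did not overlap for 11 of the 31 genes, which makes 35.5%, against 36.4% of all genes tested. In 5 of the 11 siSHMT2 lay above siNC (background 17.9%) and in 6 below (background 18.6%). With each library scaled to the same total (TPM) the median of all genes was 0.11, and 1 of the 31 was higher and 2 lower. Over all genes that scaling gave 686 higher and 620 lower, against 659 and 1070 with the deposited FPKM.

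**Figure D1:**
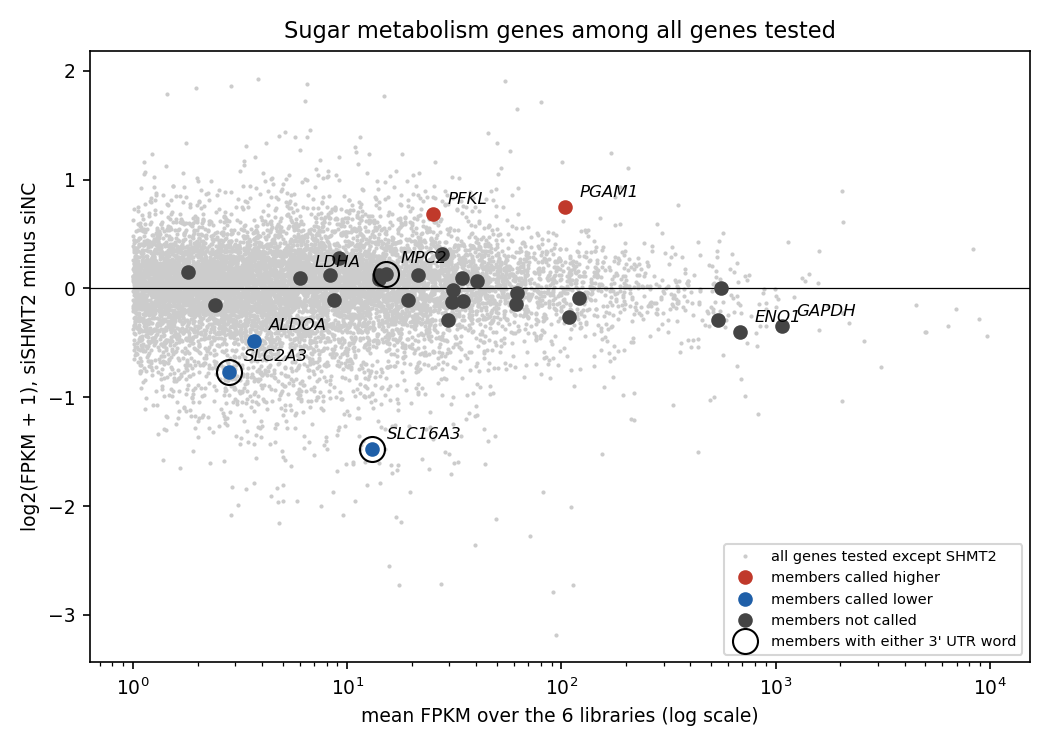
Difference between siSHMT2 and siNC (y axis, log2(FPKM + 1)) against mean FPKM over the 6 libraries (x axis, log scale). Grey points are the tested genes except SHMT2, large points are the 31 tested sugar metabolism genes, and rings mark those with either 3′ UTR word. SLC16A3 lies lowest of the 31 at -1.48 and most of the others lie near 0.

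The clearest differences were in transporters. SLC16A3 encodes MCT4, the plasma membrane carrier through which glycolytic cells export lactate. Its FPKM was 6.16, 6.26 and 6.79 in siSHMT2 libraries, against 19.3, 17.8 and 22.0 in siNC libraries. The siSHMT2 libraries were all low and close together, and the groups did not overlap. SLC16A3 fell by 1.48 on the log2(FPKM + 1) scale, to 32.5% of its siNC level (SE of the log2 difference 0.108, limma adjusted p = 0.000261). It was called lower in 17 of 17 alternative analyses. These values rest on 888 to 966 reads per siSHMT2 library and 2318 to 3116 per siNC library. CSNK1D, a kinase gene on the opposite strand, overlaps SLC16A3, and the SLC16A3 word site lies within that overlap. Whether the counting used strand is not stated in the labels or file, so reads in the shared bases cannot be told apart. CSNK1D averaged 15.8 ± 0.598 FPKM in siSHMT2 and 18.0 ± 0.670 FPKM in siNC (SD, n = 3 each, limma adjusted p = 0.237). The exons of SLC16A3 share 6.04% of their bases with exons of CSNK1D or a microRNA gene in GENCODE release 29.

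The related lactate carrier SLC16A1 (MCT1) was almost absent. It had 4, 3 and 0 reads in siSHMT2 libraries, against 0, 0 and 1 reads in siNC libraries. Both groups lie near the limit of 3 reads per library, which is 0.0341 to 0.0357 FPKM in siSHMT2 libraries and 0.0323 to 0.0390 FPKM in siNC libraries, so no fold is given. Their shared chaperone BSG (basigin), which brings both carriers to the cell surface, averaged 379 FPKM over the 6 libraries and was not called (limma adjusted p = 0.532).

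Glucose enters through SLC2A1 (GLUT1) and SLC2A3 (GLUT3). SLC2A3 stood at 1.85, 1.69 and 1.89 FPKM in siSHMT2 libraries, against 3.71, 4.53 and 3.16 FPKM in siNC libraries. Again the groups did not overlap. SLC2A3 fell by 0.76 on the log2(FPKM + 1) scale to 47.6% of the siNC mean (SE 0.125, limma adjusted p = 0.00630), and was called lower in 16 of 16 alternatives that tested it. SLC2A1, the more abundant of the pair, stood at 27.6, 26.4 and 24.3 FPKM in siSHMT2 libraries, against 36.2, 23.9 and 37.9 FPKM in siNC libraries. The groups overlapped only through siNC replicate 2, which lay below all siSHMT2 libraries, while the other siNC libraries lay above them. With all libraries the SLC2A1 difference was -0.29 (SE 0.176, limma adjusted p = 0.324). Without siNC replicate 2 it was -0.49 and called (limma adjusted p = 0.0201), the 1 call among 6 fits that left out 1 library. Without siNC replicate 3 it was -0.17 (limma adjusted p = 0.597), and SLC2A1 was called in 2 of 17 alternatives. SLC2A3 has a near-identical copy, SLC2A14, which was listed at 0 in all 6 libraries, so how reads shared by the pair were assigned is uncertain.

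Both transporters called lower hold a word. Over the 31 tested genes, 3 hold one (9.68%), against 24.6% of the 9385 searched genes tested. The 3′ UTRs of the 31 were shorter, with a median of 696 bases against 1326 over all searched genes and 1952 over those called lower, and a shorter UTR has fewer places for a word. Among all searched genes called lower 57.5% hold a word, among those called higher 10.5%, and among those not called 21.6%. MPC2, the third tested gene with a word, was not called, and ALDOA was called lower without one. The part of the words in these differences was not tested.

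**Figure D2:**
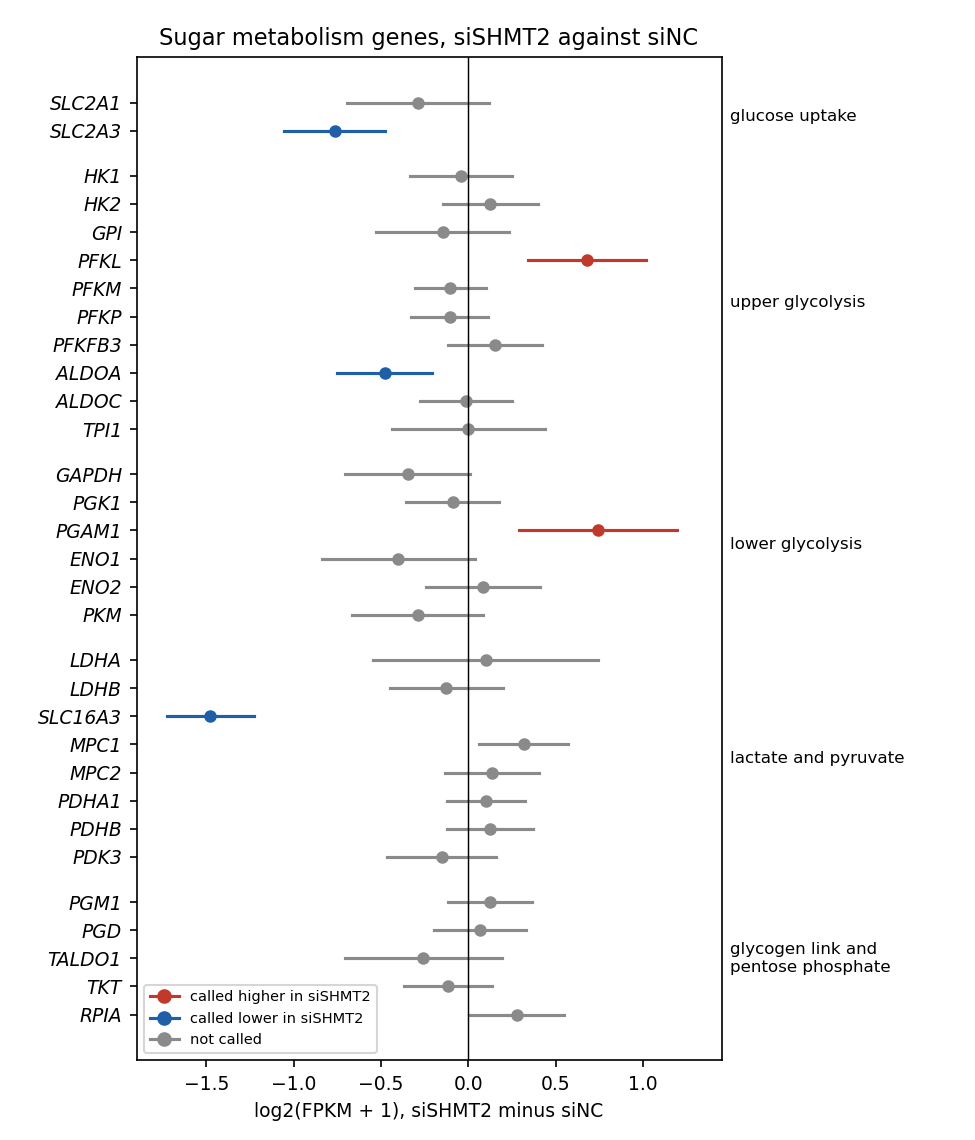
Difference between siSHMT2 and siNC on the log2(FPKM + 1) scale for the 31 tested genes, ordered by step, with 95% intervals from limma as bars. The intervals of SLC16A3, SLC2A3 and ALDOA lie below 0 and those of PFKL and PGAM1 above 0; MPC1 and RPIA also lie above 0 but were not called after adjustment.

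In upper glycolysis, hexokinase traps glucose as glucose 6-phosphate. HK1 was its main form, at 61.0 ± 3.53 FPKM in siSHMT2 and 63.1 ± 7.45 FPKM in siNC (SD, n = 3 each). HK2, the inducible form, stood at 8.13, 9.62 and 8.34 FPKM in siSHMT2 libraries, against 8.35, 8.59 and 6.79 FPKM in siNC libraries. The groups overlapped for both forms, and neither was called (limma 95% intervals of -0.33 to 0.25 for HK1 and -0.15 to 0.40 for HK2). GPI, which turns glucose 6-phosphate into fructose 6-phosphate, averaged 57.9 ± 4.95 FPKM in siSHMT2 and 65.0 ± 13.7 FPKM in siNC (SD, n = 3 each).

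Phosphofructokinase, the committed step of glycolysis, is built from liver (PFKL), muscle (PFKM) and platelet (PFKP) subunits. PFKL stood at 29.7, 28.3 and 35.4 FPKM in siSHMT2 libraries, against 15.7, 20.9 and 20.8 FPKM in siNC libraries. All siSHMT2 libraries lay above all siNC libraries. PFKL rose by 0.68 on the log2(FPKM + 1) scale, to 1.63 times its siNC level (SE 0.146, limma adjusted p = 0.0188). The call was lost without siSHMT2 replicate 1 (0.71, adjusted p = 0.0681), without siSHMT2 replicate 3 (0.59, adjusted p = 0.0799) and with no filter (adjusted p = 0.0682).

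PFKP was 19.1, 18.2 and 18.2 FPKM in siSHMT2 libraries, against 19.0, 21.2 and 19.9 FPKM in siNC libraries. PFKM was 8.18, 8.46 and 8.41 FPKM in siSHMT2 libraries, against 9.16, 8.55 and 9.42 FPKM in siNC libraries. Neither was called (limma adjusted p = 0.495 for PFKP and 0.482 for PFKM). PFKM overlaps SENP1 on the opposite strand, which was called lower (2.67 ± 0.0149 FPKM in siSHMT2, 5.24 ± 0.198 FPKM in siNC, SD, n = 3 each). The make-up of the summed phosphofructokinase transcripts did not overlap between groups. Over all 11 families this held for 7 of the 13 isoform shares, those of PFKL, PFKP and PFKM among them. For levels of single genes, groups did not overlap in 36.4% of all genes tested. The shares of a family are bound together, so a larger PFKL share leaves less for PFKP and PFKM. PFKL made 52.2%, 51.5% and 57.1% of the FPKM of the 3 genes in siSHMT2 libraries, against 35.8%, 41.3% and 41.5% in siNC libraries. PFKP made 33.5%, 33.1% and 29.3% in siSHMT2 libraries, against 43.3%, 41.8% and 39.7% in siNC libraries. By FPKM, PFKL was thus the largest of the 3 in each siSHMT2 library. In siNC libraries PFKP exceeded PFKL in replicates 1 and 2 and PFKL exceeded PFKP in replicate 3. That order in siNC depends on the gene lengths used, 8926 bases for PFKL and 5554 for PFKP. By recovered reads PFKL exceeded PFKP in each siNC library (2449, 2702 and 2923 reads against 1845, 1705 and 1736). For the FPKM shares of PFKL and PFKP the exact permutation test, two-sided, gave p = 0.1, the smallest that 3 against 3 libraries allow (0.186 adjusted over 13 shares).

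**Figure D3:**
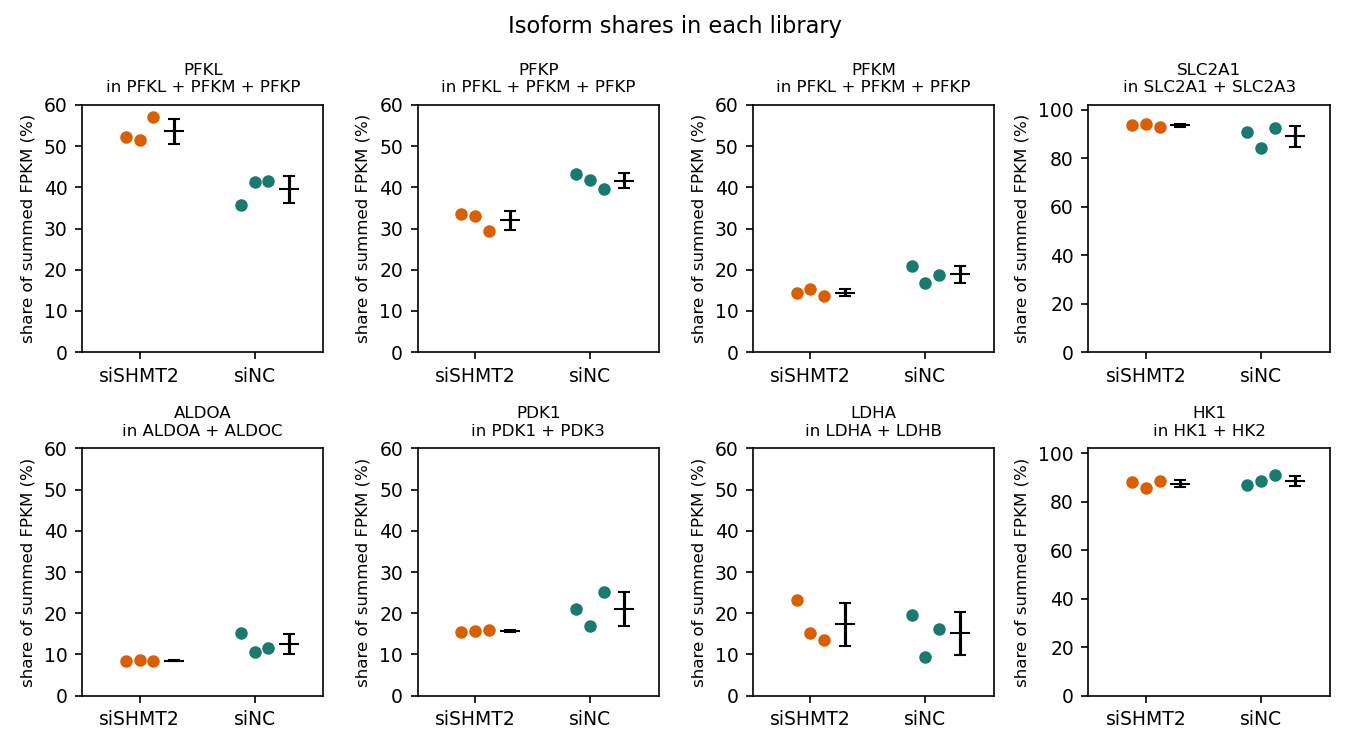
Share of an isoform in the summed FPKM of its family (y axis, percent) in each library. Points are libraries and bars are the mean and SD of 3. PFKL takes a larger share in siSHMT2 libraries and PFKP and PFKM smaller ones, while HK1 and LDHA shares overlap between groups.

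PFKFB enzymes make and remove fructose 2,6-bisphosphate, the activator of phosphofructokinase. PFKFB3 was 2.12, 2.14 and 1.62 FPKM in siSHMT2 libraries, against 1.77, 1.54 and 1.67 FPKM in siNC libraries, with siSHMT2 replicate 3 inside the siNC range. It was not called (limma adjusted p = 0.431). PFKFB2 did not reach the filter, with 0.273 to 0.386 FPKM in siSHMT2 and 0.231 to 0.359 FPKM in siNC. It holds a word and overlaps YOD1, a gene on the opposite strand that was called lower (0.928 ± 0.224 FPKM in siSHMT2, 2.66 ± 0.396 FPKM in siNC, SD, n = 3 each).

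Aldolase splits fructose 1,6-bisphosphate into a pair of triose phosphates. ALDOA was 2.92, 2.74 and 3.01 FPKM in siSHMT2 libraries, against 5.30, 4.09 and 3.95 FPKM in siNC libraries. The groups did not overlap, and ALDOA fell by 0.48 on the log2(FPKM + 1) scale to 64.9% of the siNC mean (SE 0.118, limma adjusted p = 0.0310). The call was lost when siSHMT2 replicate 1, 2 or 3 was left out (adjusted p = 0.109, 0.113 and 0.0885), with no filter (0.101), with TPM (0.159), with voom on recovered reads (0.0977) and with the trend on GC content removed (0.0599). ALDOA is usually the main aldolase of cultured cells, yet here ALDOC was listed higher, at 31.7, 28.6 and 32.9 FPKM in siSHMT2 libraries, against 29.6, 34.8 and 29.9 FPKM in siNC libraries. In GENCODE release 29, 53.5% of the exonic bases of ALDOA are shared with exons of other genes, mainly AC093512.2, a protein-coding locus on the same strand that averaged 0.602 FPKM in siSHMT2 and 0.587 FPKM in siNC. In the deposited table ALDOC lies over its full span of 3834 bases within AC005726.1, a protein-coding locus on the same strand. AC005726.1 averaged 1.75 FPKM in siSHMT2 and 1.55 FPKM in siNC. The labels and file do not say how shared reads were counted, so the levels of ALDOA and ALDOC are both uncertain. TPI1, which interconverts the triose phosphates, averaged 556 ± 58.7 FPKM in siSHMT2 and 561 ± 109 FPKM in siNC (SD, n = 3 each), with overlapping groups.

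In lower glycolysis, PGAM1 moves the phosphate of 3-phosphoglycerate, the intermediate from which serine synthesis starts. It stood at 134.5, 144.0 and 111.6 FPKM in siSHMT2 libraries, against 90.7, 57.7 and 86.5 FPKM in siNC libraries. The groups did not overlap, and siNC replicate 2 was the lowest of the 6. PGAM1 rose by 0.74 on the log2(FPKM + 1) scale to 1.66 times the siNC mean (SE 0.195, limma adjusted p = 0.0388). Without siNC replicate 2 the rise was 0.54 (adjusted p = 0.0435). The call was lost without siNC replicate 3 (adjusted p = 0.0629), without siSHMT2 replicate 1, 2 or 3 (0.137, 0.136 and 0.0678), with TPM (0.0573) and with no filter (0.133). Reads of PGAM1 may be split with its 13 named pseudogenes, whose summed mean was 1.12% of the PGAM1 mean.

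**Figure D4:**
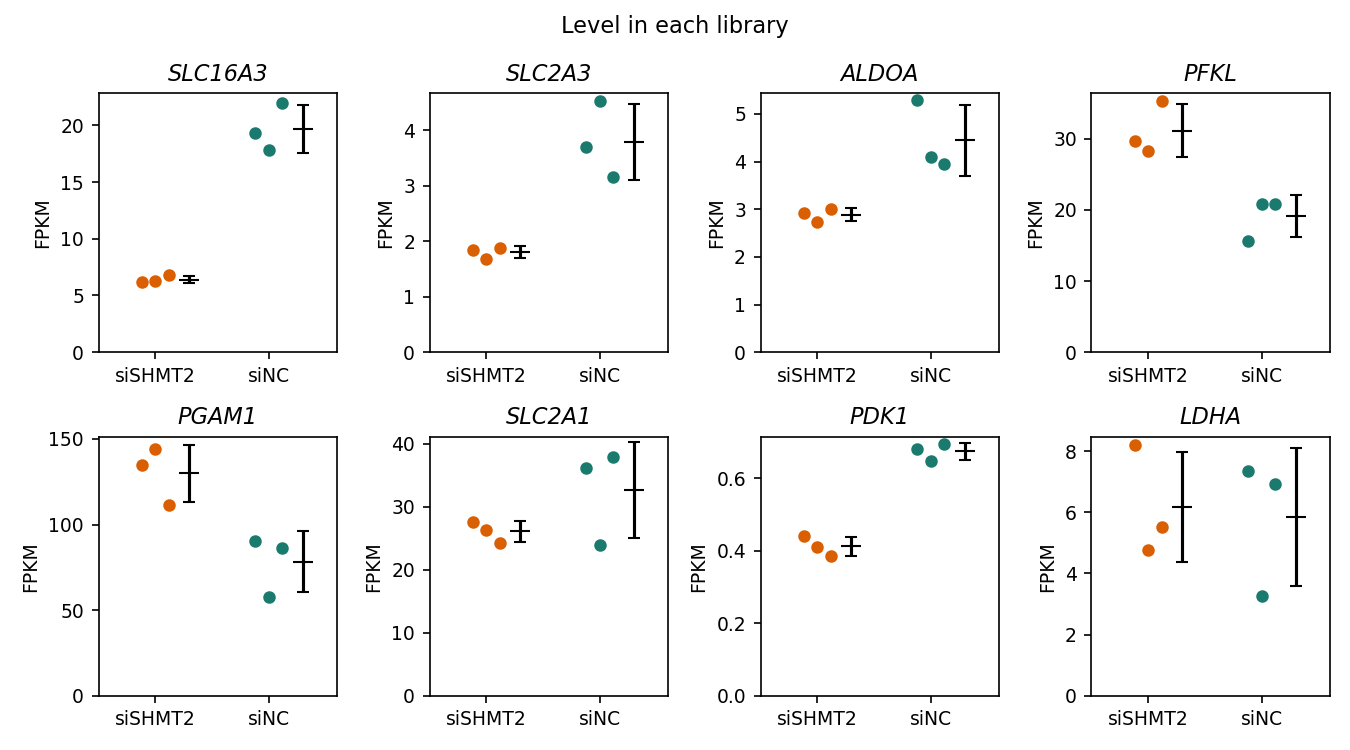
FPKM in each library (y axis) for the 5 genes called and for SLC2A1, PDK1 and LDHA. Points are libraries and bars are the mean and SD of 3. SLC16A3, SLC2A3, ALDOA and PDK1 are lower in all siSHMT2 libraries, PFKL and PGAM1 are higher in all of them, and SLC2A1 and LDHA overlap, with siNC replicate 2 the lowest library for both.

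None of the other enzymes of lower glycolysis was called by limma. GAPDH, ENO1 and PKM ranked 27, 50 and 74 by level among the 10865 genes tested, and PGK1 and ENO2 lower, at 423 and 3141. GAPDH, which oxidises glyceraldehyde 3-phosphate, was 1040, 859 and 933 FPKM in siSHMT2 libraries, against 1162, 1212 and 1216 FPKM in siNC libraries. Its groups did not overlap (difference -0.35, limma adjusted p = 0.179). ENO1, the main enolase, averaged 585 ± 39.9 FPKM in siSHMT2 and 784 ± 174 FPKM in siNC (SD, n = 3 each). ENO1 was high in siNC replicate 2, at 974 FPKM; its groups did not overlap. The ENO1 difference was -0.40 (limma adjusted p = 0.206). It was -0.23 without siNC replicate 2 (adjusted p = 0.355) and -0.54 without siNC replicate 1 (adjusted p = 0.0637). PKM, pyruvate kinase, stood at 478, 441 and 525 FPKM in siSHMT2 libraries, against 503, 658 and 610 FPKM in siNC libraries (difference -0.29, limma adjusted p = 0.280). PGK1, which makes the first ATP of the pathway, averaged 117 ± 7.03 FPKM in siSHMT2 and 124 ± 5.72 FPKM in siNC, and the minor enolase ENO2 averaged 14.5 ± 0.475 FPKM in siSHMT2 and 13.7 ± 2.63 FPKM in siNC (SD, n = 3 each). The 95% intervals of GAPDH, ENO1 and PKM reached down to -0.70, -0.84 and -0.66, so a missed threshold does not show that their levels were alike. All 34 genes together held 1.59% to 1.67% of recovered reads in siSHMT2 libraries and 1.74% to 1.90% in siNC libraries. Such a share is relative to the other genes of a library and does not measure RNA per cell.

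At the pyruvate branch, lactate dehydrogenase reduces pyruvate to lactate. LDHA, usually its main form in glycolytic cells, was 8.21, 4.77 and 5.52 FPKM in siSHMT2 libraries, against 7.36, 3.26 and 6.91 FPKM in siNC libraries. It varied more within groups than any other of the 31 tested genes, with a coefficient of variation of 29.3% in siSHMT2 and 38.5% in siNC, and was not called (limma adjusted p = 0.845). LDHB was listed higher, at 29.7 ± 4.98 FPKM in siSHMT2 and 32.3 ± 2.87 FPKM in siNC (SD, n = 3 each). LDHA made 17.3% ± 5.22 of the summed FPKM in siSHMT2 and 15.1% ± 5.19 in siNC (SD, n = 3 each; exact permutation p = 0.7, two-sided). The LDHB row shares 33.4% of its exonic bases with AC010197.2, which was listed at 0 in all 6 libraries. Reads of LDHA may be split with its 6 named pseudogenes, whose summed mean was 3.06% of the LDHA mean. LDHA also overlaps AC084117.1 on the same strand (0.149 FPKM in siSHMT2, 0.0784 FPKM in siNC). How shared reads were counted is not stated, so the levels of LDHA and LDHB and the LDHA share are uncertain.

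Pyruvate enters mitochondria through the carrier built from MPC1 and MPC2. MPC1 was 30.3, 33.6 and 28.5 FPKM in siSHMT2 libraries, against 23.8, 23.3 and 26.5 FPKM in siNC libraries. The groups did not overlap, but MPC1 was not called (difference 0.32, SE 0.110, limma adjusted p = 0.0916). It was called with the GC trend removed (0.36, adjusted p = 0.0293) and with array weights (0.22, adjusted p = 0.0497). MPC2 averaged 16.0 ± 1.43 FPKM in siSHMT2 and 14.5 ± 1.52 FPKM in siNC (SD, n = 3 each). It shares 22.5% of its exonic bases with DCAF6 on the opposite strand, which was called higher, so its reads are uncertain.

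Neither pyruvate dehydrogenase subunit was called by limma: PDHA1 averaged 35.4 ± 1.34 FPKM in siSHMT2 and 33.0 ± 1.01 FPKM in siNC, and PDHB 14.6 ± 0.505 FPKM in siSHMT2 and 13.4 ± 1.41 FPKM in siNC (SD, n = 3 each). The PDHA1 groups did not overlap (34.1 to 36.8 FPKM in siSHMT2, 31.9 to 33.9 FPKM in siNC), and those of PDHB did. PDHA1 shares 21.3% of its exonic bases with MAP3K15 on the opposite strand. The 95% limma intervals ran from -0.12 to 0.32 for PDHA1 and from -0.12 to 0.37 for PDHB. PDK1, a kinase that shuts this complex off, was low but separated the groups. It stood at 0.440, 0.409 and 0.387 FPKM in siSHMT2 libraries, against 0.680, 0.649 and 0.696 FPKM in siNC libraries, from 91 to 105 reads per siSHMT2 library and 140 to 177 per siNC library. That left 61.0% of the siNC level. PDK1 lay below the filter, and in the fit with no filter it was not called (-0.25, limma adjusted p = 0.201). PDK3, a related kinase, averaged 2.22 ± 0.179 FPKM in siSHMT2 and 2.61 ± 0.571 FPKM in siNC (SD, n = 3 each).

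None of the 5 genes of the glycogen link and the pentose phosphate pathway was called by limma. PGD, which makes NADPH and ribulose 5-phosphate, was 42.9, 41.7 and 39.7 FPKM in siSHMT2 libraries, against 35.1, 42.8 and 40.9 FPKM in siNC libraries, with overlapping groups. RPIA, which makes ribose 5-phosphate, averaged 10.1 ± 1.39 FPKM in siSHMT2 and 8.11 ± 0.477 FPKM in siNC (SD, n = 3 each); the groups did not overlap (difference 0.28, limma adjusted p = 0.158). The carbon-shuffling enzymes TKT and TALDO1 averaged 33.2 ± 1.37 and 98.1 ± 8.49 FPKM in siSHMT2, against 36.1 ± 3.19 and 119.9 ± 32.3 FPKM in siNC (SD, n = 3 each). TALDO1 was high in siNC replicate 2, at 156 FPKM. PGM1, which links glucose 6-phosphate to glycogen, averaged 22.5 ± 1.69 FPKM in siSHMT2 and 20.5 ± 1.25 FPKM in siNC (SD, n = 3 each).

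A wider list held 73 further genes of sugar and pyruvate metabolism, of which 38 were tested. By limma 6 were lower and 0 higher, which makes 15.8%, again close to the 15.9% of all genes. At an unadjusted p under 0.05, 11 were lower and 7 higher, and limma voom on recovered reads called 2 lower and 2 higher. The list's median difference was 0.03. GFPT1, the entry enzyme of hexosamine synthesis, stood at 1.76 ± 0.246 FPKM in siSHMT2 and 4.25 ± 0.603 FPKM in siNC (SD, n = 3 each) and fell by 0.92 (limma adjusted p = 0.00276). Its paralog GFPT2 fell by 0.43 and PGM3, a later enzyme of the same route, by 0.39. PYGL, the liver glycogen phosphorylase, fell by 0.37, PDP1, the phosphatase that turns pyruvate dehydrogenase on, by 0.47, and H6PD, an NADPH-producing enzyme of the endoplasmic reticulum, by 0.36. GFPT1, PGM3, PDP1 and H6PD hold a 3′ UTR word, and GFPT2 and PYGL do not. With TPM, or without siSHMT2 replicate 1, 2 or 3 or siNC replicate 3, 1 of the list was lower.

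Among 14 known regulators of these genes, 12 were tested and 3 called (25.0%, against 15.9% of all genes tested). TXNIP, a glucose-induced inhibitor of glucose uptake, fell by 0.78 (9.08 ± 0.456 FPKM in siSHMT2, 16.3 ± 2.07 FPKM in siNC, SD, n = 3 each; limma adjusted p = 0.00415). MLXIP (MondoA), the glucose-sensing factor that drives TXNIP, rose by 0.61 (9.03 to 10.02 FPKM in siSHMT2, 4.87 to 7.34 FPKM in siNC; limma adjusted p = 0.0224). NFE2L2 (NRF2), which drives NADPH-producing genes, fell by 0.79 (limma adjusted p = 0.00770). HIF1A, the hypoxia factor known to drive SLC2A1, LDHA, PDK1 and SLC16A3, averaged 44.6 ± 1.76 FPKM in siSHMT2 and 42.0 ± 5.63 FPKM in siNC (SD, n = 3 each; limma adjusted p = 0.672). Regulator transcripts do not measure the activity of their proteins.

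Promoter windows of 250 bases before to 50 after each gene start (RefSeq, GRCh38.p14) were matched for 31 of the 34 genes, with 61 windows in all. ACGTG, the core of the hypoxia response element, was searched on both strands, as was the E-box CACGTG, which contains it. ACGTG was present in 22 of the 61 windows (36.1%), against 21.4% of all 35116 windows. By gene it was present in 18 of the 31 (58.1%), against 24.9% of all 27305 genes. The 31 genes had 61 windows and the 27305 genes 35116, so these genes had more windows each and more places for a match. Windows of 1 gene can overlap, and the PFKM windows with a match hold the same one. CACGTG was present in 7 windows (11.5%), against 7.26% of all windows. The windows of these genes were richer in G and C (median 69.7%) than all windows (58.7%). The LDHA window is shown because it held the most matches, 5 over both strands with each E-box counted on both, and for SLC16A3, the gene that differed most, the 1 of its 5 windows that held a match. Capitals mark ACGTG on either strand.
LDHA: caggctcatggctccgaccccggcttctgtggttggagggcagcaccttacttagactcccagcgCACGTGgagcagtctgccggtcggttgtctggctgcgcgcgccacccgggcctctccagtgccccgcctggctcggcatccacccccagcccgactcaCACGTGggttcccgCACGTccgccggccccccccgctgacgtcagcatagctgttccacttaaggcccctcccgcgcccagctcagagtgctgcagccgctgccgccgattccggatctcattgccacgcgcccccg
SLC16A3: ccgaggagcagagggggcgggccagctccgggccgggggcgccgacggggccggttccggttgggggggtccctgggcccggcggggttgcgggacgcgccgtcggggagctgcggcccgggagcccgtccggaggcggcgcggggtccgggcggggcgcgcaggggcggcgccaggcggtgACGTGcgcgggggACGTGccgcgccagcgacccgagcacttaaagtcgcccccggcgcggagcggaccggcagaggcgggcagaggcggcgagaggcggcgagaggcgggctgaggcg
The LDHA window is chr11:18394313-18394612 and the SLC16A3 window chr17:82228792-82229091, both on the plus strand. PFKL and PGAM1, the genes called higher, had no match in their 1 window each, but the PGAM1 window starts downstream of the start of the gene in the deposited table, which was not searched. SLC2A3, SLC16A1 and PFKFB2 had no window in the table used. A match is a run of letters and does not show binding.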

How the data were processed

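The table deposited by the authors holds FPKM for 6 libraries beside each gene's position, length and biotype. The submitters' processing notes name HISAT2 2.0.5, featureCounts 1.5.0-p3 and the build hg18. Per the labels' protocols, Trizol was used for total RNA and a SMARTER kit for the libraries. All 34 genes overlapped their GENCODE release 29 (GRCh38) entries, 17 with identical ends, so sequence positions are given in GRCh38. Reads were recovered from FPKM and gene length (100% of values within 0.02 of a whole number).

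The test was limma 3.58.1 (R 4.3.3) with pseudocount 1, a mean FPKM of at least 1, variances moderated along mean level, and p-values adjusted by Benjamini-Hochberg over 10865 genes (threshold 0.05), as siSHMT2 minus siNC. Isoform shares were compared by exact permutation tests. The alternatives changed the pseudocount, filter, scaling, biotypes, trend, library weights, replicate block, read model or libraries.

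The 34 genes, the lists and the words were chosen with earlier results of these data known. By rule, per-library values are given for called genes, for SLC2A1, HK2, PFKP, PFKFB3, PKM, LDHA, PDK1 and PGD, and for isoform partners of called genes, and called genes of the wider list are named. The library values of GAPDH, MPC1, ENO1 and TALDO1, and the naming of BSG, were chosen after their values were seen. Words were searched in the longest 3′ UTR of each gene, of at least 50 bases. The limit of 3 reads covers counting error only. The fit was tested on simulated data. It called 16.4% of simulated 1.5-fold changes, 73.1% of 2-fold changes, 97.9% of 4-fold changes and 0.0713% of unchanged genes. Changes of 1.5-fold were thus mostly missed there. The simulation differed from these data: both groups had the same spread, genes varied independently, and no library deviated with GC content. Its library size was the sum of the simulated reads. The rates, that of unchanged genes included, may therefore not hold in these data.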

Additional observations from a re-analysis of the deposited data

How the results depend on the processing

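SHMT2, SLC16A3 and SLC2A3 kept their direction and their call in every alternative that tested them, out of 17. PFKL kept its direction in 17 and its call in 14, PGAM1 in 17 and 10, and ALDOA in 16 and 8 of the 16 that tested it. Of the 26 genes not called, 5 were called under some alternative (SLC2A1, ENO1, PKM, MPC1 and RPIA, each with array weights among them) and 9 changed sign under some alternative without a call. Of the 34 genes, the counts higher and lower were 0 and 2 with no filter, 2 and 1 at a mean FPKM of at least 5, 1 and 2 with TPM, 4 and 6 with array weights, 1 and 2 with the replicate block, and 0 to 2 and 2 to 4 when 1 library was left out. None was higher without siSHMT2 replicate 1 or 3, and 1 was without siSHMT2 replicate 2 or siNC replicate 3; leaving out siSHMT2 replicate 1, 2 or 3 gave 2 lower. Over all genes they were 333 and 603 with no filter, 618 lower at a mean FPKM of at least 5, 620 lower with TPM, 1827 and 1976 with array weights, 374 and 696 with the replicate block, 1076 higher with the GC trend removed (chosen after seeing the data), and 229 to 729 and 498 to 1132 with 1 library left out. In the wider list they were 1 and 3 at a mean FPKM of at least 5, 1 and 1 with TPM, 2 higher among protein-coding genes, 6 and 12 with array weights, 1 and 1 with the replicate block, 2 and 2 with voom, 5 higher with the GC trend removed, and 0 to 1 and 1 to 7 with 1 library left out. The cause was not tested. Same-numbered libraries did not deviate together (correlations of -0.0183, -0.349 and 0.243), and not every library correlated best with its own number, so the numbers were not taken as pairs. ALDOA and PGAM1 were not called with the replicate block (limma adjusted p = 0.0639 for ALDOA and 0.0845 for PGAM1). The 13 isoform shares had no test that could pass 0.05 with 3 against 3 libraries.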
